A study of Mus musculus with 12 samples.

Results

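Pericyte nuclei were examined in single-nucleus RNA sequencing libraries of 12 mouse lungs. Every nucleus has its barcode, and every captured RNA molecule is counted once through a unique molecular identifier (UMI). The nuclei were chosen by their own UMIs. A barcode with 200 to 6000 detected genes and at most 5% mitochondrial UMIs was taken as a pericyte nucleus when it held at least 3 UMIs over at least 2 of 6 genes (Adcy8, Trpc6, Agtr1a, Clstn2, Gap43 and Gucy1a1). It also had to hold more UMIs from these than from 10 genes of neighbouring cell types (Myh11, Cnn1, Des, Actg2, Itga8, Scube2, Pi16, Rtkn2, Kit and Ednrb). This selected 1194 of the 47319 nuclei that passed the filters, from 49163 barcodes in all. Levels of these 16 genes, and levels in pericyte nuclei set against those in other nuclei, describe the selection and are given with no test. The tests between treatments ran across all genes, and a call on a selecting gene is not read as a result.

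The C57BL/6J mice, aged 7 weeks, received PBS or bleomycin, which scars the lung, into the trachea. From day 5 they were gavaged once daily for 5 days with vehicle or with NVP-BHG712, which inhibits the receptor tyrosine kinase EphB4, and lungs were taken on day 14. The 4 groups (PBS_vehicle, PBS_NVP, Bleo_vehicle and Bleo_NVP) had 3 mice and 3 libraries each, and differed in these 2 treatments. The study asked whether EphB4 inhibition lessens lung fibrosis. Whole lungs were frozen and nuclei sorted on DNA stain, so no cell type was enriched. The 3 Bleo_NVP libraries are all labelled run 4 and the Bleo_vehicle libraries batch 6 or 7, whereas PBS libraries are labelled run 1, 2 or 3. Hence, wherever a bleomycin group is compared, batch and group cannot be told apart.

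Pericytes are mural cells that lie within the basement membrane of capillaries and wrap the endothelial tube. Endothelial PDGF-B acting on the receptor Pdgfrb recruits and keeps them, Notch3 is their main Notch receptor, and angiopoietin-1, encoded by Angpt1, is a ligand that they send to the endothelial receptor Tek. Nitric oxide relaxes them through soluble guanylate cyclase, cyclic GMP and the kinase encoded by Prkg1. Ephrin-B2, encoded by Efnb2, is the ligand of EphB4 and is used by mural and endothelial cells. After lung injury pericytes have been examined as one possible source of matrix-producing cells.

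The label was first checked with 20 pericyte markers that took no part in the selection. Levels were counts per 1e6 UMIs of a set (CPM), and pericyte nuclei were set beside fibroblast, endothelial and smooth muscle nuclei, each chosen by at least 3 UMIs over at least 2 of its own markers. Pdgfrb was at 57.3 to 631 CPM in the 12 pericyte sums, with a mean of 391 CPM, against means of 16.1 CPM in fibroblast nuclei, 8.39 CPM in endothelial nuclei and 97.3 CPM in smooth muscle nuclei. It was higher in pericyte than in each of these other sets in all 12 libraries. Notch3 averaged 851 CPM in pericyte nuclei, 8.3 CPM in fibroblast nuclei and 341 CPM in smooth muscle nuclei. The transcription factor gene Ebf1 averaged 2621 CPM in pericyte nuclei, against 34.9 CPM in fibroblast nuclei and 172 CPM in endothelial nuclei. Gucy1b1, the beta subunit of soluble guanylate cyclase, averaged 786 CPM and 29.2 CPM in pericyte and fibroblast nuclei. The potassium channel gene Kcnk3 averaged 177 CPM and 3.16 CPM in the same order.

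Other markers set limits to the label. Postn, which encodes the matrix protein periostin, averaged 347 CPM in pericyte nuclei and 384 CPM in smooth muscle nuclei, so it marked both mural sets. Mcam averaged 135 CPM in pericyte nuclei but also 93.7 CPM in endothelial nuclei. Several textbook pericyte genes were close to absent from these nuclei: over all 1194 nuclei, Rgs5 had 23 UMIs, Kcnj8 had 2, Foxs1 had 8, Anpep had 38 and Ndufa4l2 had 47. Cspg4, Heyl and Cox4i2 had 303, 326 and 362 UMIs. Higd1b, Abcc9, Lamc3 and Vtn had 33, 35, 58 and 30 UMIs in the 554 pericyte nuclei of Bleo_vehicle. In the 356 pericyte nuclei of PBS_NVP they had 39, 33, 30 and 39 UMIs. Enpep averaged 107 CPM in fibroblast nuclei, scaled as in the comparisons below, and was not abundant enough to test in pericyte nuclei.

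**Figure D1:**
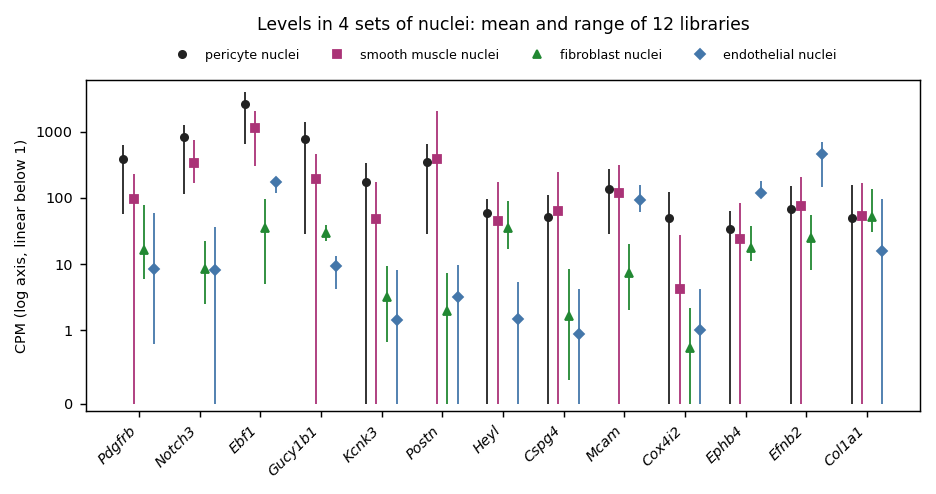
Levels of 10 pericyte markers not used in the selection and of Ephb4, Efnb2 and Col1a1 in 4 sets of nuclei, in CPM on a log axis that is linear below 1. Points are means of 12 libraries and lines run from the lowest to the highest library. Pdgfrb averaged 391 CPM in pericyte nuclei and 16.1 CPM in fibroblast nuclei, whereas Ephb4 and Efnb2 were highest in endothelial nuclei.

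Most, but not all, selected nuclei carried the other pericyte markers. At least 3 UMIs over at least 2 of the 20 markers were present in 80 to 96% of pericyte nuclei in 11 libraries and in 40% in PBS_NVP replicate 3. The same share was 8.55 to 24.7% in fibroblast nuclei and 1.33 to 11.6% in endothelial nuclei. The library medians were 691 to 4613 UMIs in pericyte nuclei, 2562 to 6745 UMIs in fibroblast nuclei and 1580 to 3670 UMIs in endothelial nuclei. Support increased with the number of selecting UMIs. It was 53.3% in the 60 nuclei with exactly 3 UMIs from the 6 genes, 65.6% in the 93 with 4 or 5, 83% in the 182 with 6 to 10 and 98.7% in the 859 with over 10. Of the barcodes just outside the rule, 95 had 2 such UMIs from 2 genes and 23.2% of these were supported, and 187 had 3 or more UMIs from 1 gene only and 20.9% were supported. A further 168 reached 3 UMIs over 2 genes but did not exceed the 10 excluding genes, and 78.6% of those were supported.

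A few libraries stood apart. PBS_NVP replicate 3 had 10 pericyte nuclei, summed levels of the 20 markers of 1002 CPM against 2631 to 8246 CPM in the other 11 libraries, and 744 CPM of mesothelial markers against 0 to 143 CPM elsewhere. Bleo_vehicle replicates 1 and 2 had marker sums of 3352 and 2631 CPM, and in them over 10 selecting UMIs were found in only 3 of 25 and 33 of 157 nuclei. In Bleo_vehicle replicate 3 the same count was 309 of 372. One nucleus supplied 55.3% of the pericyte UMIs of PBS_NVP replicate 3 and 40.9% of those of PBS_vehicle replicate 3. Counts of called genes and 3 gene groups are given below with and without PBS_NVP replicate 3 and Bleo_vehicle replicates 1 and 2.

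**Figure D2:**
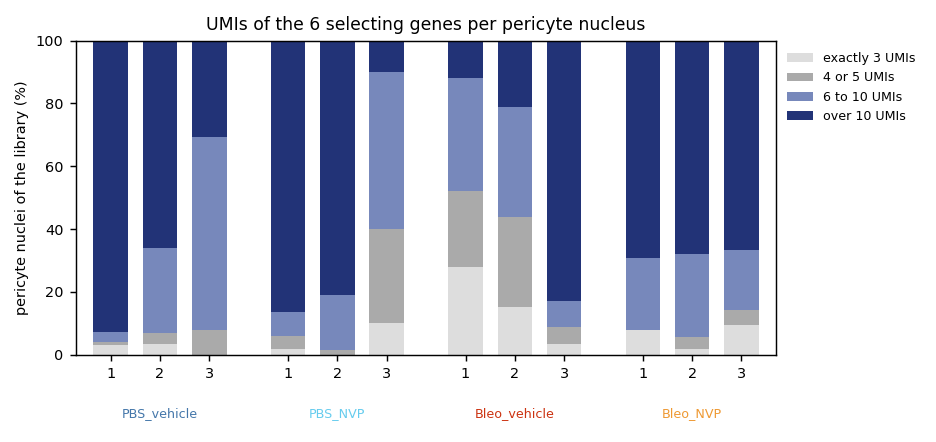
Percentage of the pericyte nuclei of each library (y axis) by the number of UMIs they held from the 6 selecting genes; the x axis gives the replicate in each group. Nuclei with over 10 such UMIs are 309 of 372 in Bleo_vehicle replicate 3, but 3 of 25 and 33 of 157 in replicates 1 and 2 of that group.

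RNA of other cell types was present in the pericyte nuclei and differed between groups. Type II alveolar markers (at least 3 UMIs over at least 2 markers) were found in 42% and 72.3% of the pericyte nuclei of Bleo_vehicle replicates 2 and 3 and in 0 to 27.2% in the other 10 libraries. Endothelial markers were found in 0 to 25.5% and macrophage markers in 0 to 16%, in both cases with the highest values in Bleo_vehicle. Airway markers were found in 0 to 31.2%, with the highest value in Bleo_vehicle replicate 3. Smooth muscle markers were found in 0 to 25.6%, with the highest value in PBS_vehicle replicate 1. Their summed levels were 57.3 to 643 CPM in pericyte nuclei and 33.9 to 84.9 CPM in all nuclei that passed. As summed levels, type II markers were at 356 to 5326 CPM in PBS_vehicle, 344 to 822 CPM in PBS_NVP, 1246 to 2662 CPM in Bleo_vehicle and 186 to 3729 CPM in Bleo_NVP. Macrophage markers were at 40.4 to 212, 57.3 to 562, 433 to 702 and 38.4 to 186 CPM in the same order. Alveolar fibroblast markers met the same count in 16.8%, 1.69% and 15.4% of the pericyte nuclei of PBS_vehicle, 10.8%, 5.88% and 0% of those of PBS_NVP, 4%, 12.1% and 11.3% of those of Bleo_vehicle and 0% in all 3 Bleo_NVP libraries. Their summed levels were 388 to 1902, 115 to 510, 215 to 496 and 149 to 384 CPM in the same order of groups. Summed Schwann cell markers were at 0 to 112 CPM, and no nucleus met the same count for them. The median mitochondrial share of pericyte nuclei was 2.76%, 1.36% and 0.924% in replicates 1 to 3 of Bleo_vehicle, whereas the other 9 libraries stayed at or under 0.127%. The part of these differences in the group comparisons was not tested, except by the settings named beside them. One barcode sequence was shared between libraries among the pericyte nuclei, and library pairs shared 0 to 34 barcodes over all nuclei.

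The selecting genes were not equally frequent. Trpc6, a cation channel gated by diacylglycerol, had a UMI in 92.4% of pericyte nuclei, Gucy1a1, the alpha subunit of soluble guanylate cyclase, in 86.5%, Clstn2 in 82.1% and Adcy8, an adenylate cyclase, in 78.4%. The angiotensin II receptor gene Agtr1a was seen in 46.1% and Gap43 in 28.5%. All 6 genes were seen in 16.7% of the nuclei and exactly 2 in 14.9%. Adcy8 was seen in 32% and 52.9% of nuclei in Bleo_vehicle replicates 1 and 2, and in 76.2 to 89.6% in each of the other 10 libraries. Agtr1a ranged from 0 to 77.6% among libraries. Of the 10 excluding genes, Myh11 was still found with 1066 UMIs in total, Itga8 with 566, Rtkn2 with 494, Kit with 264, Des with 249 and Scube2 with 103. Ednrb, Pi16, Actg2 and Cnn1 had 45, 17, 15 and 1 UMIs.

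Beyond the marker lists, the genes with the highest ratio of pericyte level to the next highest of the other sets were listed as a description, chosen after their values were seen among genes with a median of at least 50 CPM. Kcnq5, which encodes a voltage-gated potassium channel, reached 11173 CPM as a mean over libraries, with a range of 1002 to 18504 CPM. Its level in smooth muscle nuclei, the next highest set, was 573 CPM. The secreted protein gene Fam19a1 averaged 1776 CPM against 59.4 CPM in fibroblast nuclei, and Lef1, a transcription factor of the Wnt pathway, averaged 393 CPM against 24.1 CPM in smooth muscle nuclei. Nmnat2, an enzyme of NAD synthesis, averaged 455 CPM against 28 CPM. The adhesion genes Pcdh19 and Pcdh18 averaged 115 and 97.3 CPM against 3.48 and 3.93 CPM in smooth muscle nuclei. Cdh2, which encodes N-cadherin, the adhesion molecule of pericyte-endothelial contacts, averaged 372 CPM against 30 CPM. Kcnq5, Fam19a1, Lef1, Nmnat2, Pcdh19 and Cdh2 were higher in pericyte nuclei than in the next set in all 12 libraries, and Pcdh18 in 11.

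The share of pericyte nuclei varied more within groups than between them. In PBS_vehicle, pericyte nuclei were 3.31%, 2.38% and 0.887% of nuclei in replicates 1 to 3 (125, 59 and 13 nuclei). In PBS_NVP the shares were 3.23%, 3.23% and 0.569% (278, 68 and 10 nuclei). In Bleo_vehicle they were 1.1%, 2.35% and 2.8% (25, 157 and 372 nuclei), and in Bleo_NVP 1.1%, 2.5% and 1.3% (13, 53 and 21 nuclei). Every pair of groups overlapped. The 95% Wilson intervals, which cover counting error only, ran from 0.31 to 1.05% in PBS_NVP replicate 3 and from 2.79 to 3.94% in PBS_vehicle replicate 1.

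PBS_vehicle averaged 2.19% ± 1.22 and PBS_NVP 2.34% ± 1.54, Bleo_vehicle 2.08% ± 0.882 and Bleo_NVP 1.63% ± 0.753 (SD, n = 3 each). Bleo_NVP minus Bleo_vehicle was -0.451 points (exact two-sided permutation p = 0.7) and Bleo_vehicle minus PBS_vehicle was -0.11 points (exact p = 0.9). PBS_NVP was 0.148 points above PBS_vehicle (exact p = 1) and Bleo_NVP minus PBS_NVP was -0.708 points (exact p = 0.6). In 6 bleomycin against 6 PBS libraries the means were 1.86% and 2.27% (exact permutation p = 0.489). All 5 adjusted p-values were 1. Groups of 3 libraries cannot give a p under 0.1.

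The share was also computed at equal depth. Median UMIs per nucleus that passed ran from 1079 in Bleo_vehicle replicate 1 to 5398 in PBS_vehicle replicate 1. After every nucleus was thinned to 1000 UMIs and shallower nuclei were left out (54 to 2365 per library), shares ran from 0.0752% in PBS_NVP replicate 3 to 3.04% in PBS_vehicle replicate 1. The thinned means were 1.65% for PBS_vehicle, 1.89% for PBS_NVP, 1.46% for Bleo_vehicle and 1.04% for Bleo_NVP. Across the 12 libraries the share and the median depth had a Spearman rho of 0.692, and the thinned share and the depth one of 0.664, as a description only, since the points share the selection by UMIs.

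**Figure D3:**
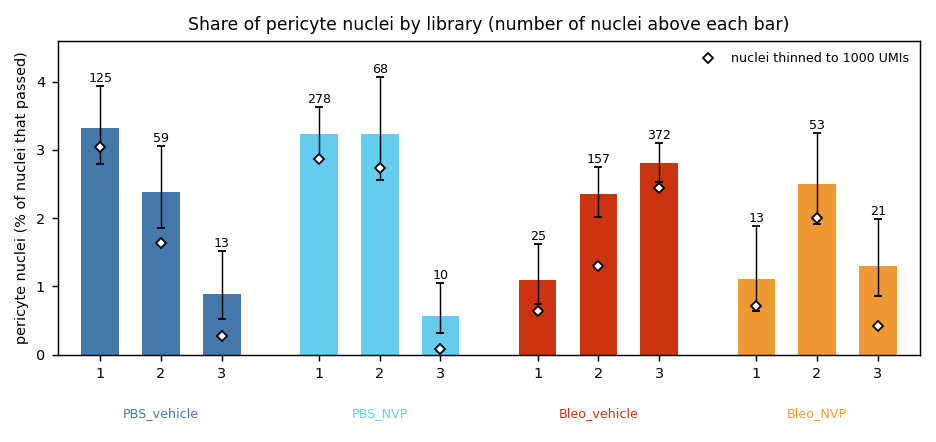
Pericyte nuclei as a percentage of the nuclei that passed (y axis) in the 3 replicates of each group (x axis). Bars show the share with its 95% Wilson interval, numbers the count of pericyte nuclei, and diamonds the share after each nucleus was thinned to 1000 UMIs. Shares run from 0.569 to 3.31% and the 4 groups overlap.

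To ask how pericyte nuclei differed between treatments, UMIs of the pericyte nuclei of a library were added up, and the 12 sums entered the quasi-likelihood test of edgeR. A gene was called when its Benjamini-Hochberg adjusted p-value was under 0.05. The sums held 18402 to 1459833 UMIs and left 2798 genes to test. PBS_vehicle held 859279 UMIs, PBS_NVP 1169771, Bleo_vehicle 1943182 and Bleo_NVP 133559, so Bleo_NVP was the shallowest by far. CPM in the comparisons that follow are scaled by the TMM factors of edgeR, so that they differ from the plain CPM used above.

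A single gene passed in any of the comparisons. Gm26870, an annotated lincRNA at chr9:3000282-3038313 (GRCm38), rose in Bleo_vehicle over PBS_vehicle, the only call among 2798 genes (0.0357%). It is outside the rule for naming genes, since its symbol is that of a predicted gene, and was chosen after its value was seen. Its levels were 971, 755 and 302 CPM in Bleo_vehicle and 0, 9.68 and 0 CPM in PBS_vehicle, and the groups did not overlap. The fitted log2 change was 8.35 ± 1.02 (SE; edgeR adjusted p = 0.00167), and without PBS_vehicle replicate 1 the adjusted p was 0.172. PBS_vehicle held 1 UMI of it and Bleo_vehicle 642, a ratio of 284 with a 95% counting interval of 50.8 to 11230. Bleo_NVP had 88.7, 0 and 45.1 CPM. The gene was not particular to pericyte nuclei: fibroblast nuclei held 803, 574 and 376 CPM in Bleo_vehicle against 5.71, 30.3 and 104 CPM in PBS_vehicle, and the difference between the 2 sets was not called (edgeR adjusted p = 0.564).

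In Bleo_NVP against Bleo_vehicle 0 of 2798 genes were called by edgeR (0%), 251 genes had an unadjusted p under 0.05, and DESeq2 called 21. In Bleo_vehicle against PBS_vehicle 115 genes had an unadjusted p under 0.05, and DESeq2 called 1, which was Gm26870. Counts of non-overlapping groups gave the background for the gene groups described next. Of all tested genes, 6.5% had every Bleo_NVP library above every Bleo_vehicle library and 11.3% had every one below. For Bleo_vehicle against PBS_vehicle these shares were 8.86% higher and 6.61% lower. The median log2 change of all tested genes was -0.02 in the first comparison and 0.02 in the second.

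Besides Gm26870, the genes nearest to a call in Bleo_NVP against Bleo_vehicle were Unc5d, C7 and Mertk (edgeR adjusted p = 0.161 each). Unc5d, a netrin receptor gene, was at 310, 368 and 766 CPM in Bleo_NVP and 0, 56.8 and 57 CPM in Bleo_vehicle. The log2 difference was 3.22 ± 0.65 (SE), and PBS_vehicle was at 141, 291 and 69.1 CPM. C7, a terminal complement component, was at 0, 30.7 and 0 CPM in Bleo_NVP and 497, 859 and 247 CPM in Bleo_vehicle. Mertk, a receptor kinase for apoptotic cells, was at 44.4, 15.3 and 0 CPM against 361, 369 and 244 CPM. Fn1, which encodes fibronectin, was at 0, 15.3 and 45.1 CPM against 768, 344 and 175 CPM (edgeR adjusted p = 0.202). The groups did not overlap for any of these 4 genes. The Bleo_NVP values of C7, Mertk and Fn1 rest on 2 UMIs each over the group, and the ratios of Bleo_vehicle to Bleo_NVP had counting intervals of 5.58 to 168 for C7, 4.01 to 121 for Mertk and 3.32 to 100 for Fn1. None of the 4 was called by edgeR over all pericyte nuclei and libraries. Of 25 alternative settings, Unc5d was called in 7, Fn1 in 6, Mertk in 5 and C7 in 4, in each case including DESeq2 and edgeR with no filter on low counts. Among settings that left out 1 library, Unc5d was called without PBS_NVP replicate 3 and the other 3 genes without Bleo_vehicle replicate 3. These genes, with Ryr2 and Neat1, were chosen after their values were seen.

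In Bleo_vehicle against PBS_vehicle, the smallest p after that of Gm26870 belonged to Ryr2, the ryanodine receptor that releases stored calcium. It was at 90.4, 85.2 and 88 CPM in Bleo_vehicle and 1009, 329 and 207 CPM in PBS_vehicle, with a log2 difference of -2.74 ± 0.57 (SE; edgeR adjusted p = 0.295). Ryr2 was called in 5 of 25 alternative settings, among them without PBS_NVP replicate 3. Fn1 was at 34.1, 38.7 and 207 CPM in PBS_vehicle and differed from Bleo_vehicle by 3.05 ± 0.76 on the log2 scale (edgeR adjusted p = 0.575), and these groups overlapped. Fn1 was called in 2 of 25, with no filter on low counts and with the largest nucleus of each library left out. Neat1, a nuclear long noncoding RNA, was at 7410, 4332 and 1082 CPM in Bleo_vehicle and 615, 504 and 1312 CPM in PBS_vehicle, and these groups also overlapped. Neat1 was called in 3 of 25, among them without Bleo_vehicle replicate 3 (edgeR adjusted p = 0.03).

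The 20 markers outside the selection were described next, in the order of the pericyte's own signalling. Of the 20, 7 were abundant enough to test, 0 were called, and the median log2 difference was 0.55 in Bleo_NVP against Bleo_vehicle and -0.55 in Bleo_vehicle against PBS_vehicle. All 7 were on the higher side in the first comparison and all 7 on the lower side in the second, 2 comparisons that share the Bleo_vehicle libraries. With PBS_NVP replicate 3 and Bleo_vehicle replicates 1 and 2 left out, the medians were 0.04 and -0.09. Of the 7 genes, 5 were then higher in the first comparison and 4 lower in the second. Those 3 libraries were set apart by low sums of these same 20 markers, and Bleo_vehicle was then replicate 3 alone. Smaller medians were thus built into the setting and are not read as a result. Pdgfrb was at 994, 278 and 328 CPM in Bleo_vehicle and 399, 645 and 451 CPM in Bleo_NVP, with a log2 difference of 0.04 and a 95% interval of -1.19 to 1.27. Notch3 was at 1326, 1114 and 1174 CPM in PBS_vehicle and 1039, 729 and 1077 CPM in Bleo_vehicle. These 2 groups did not overlap, yet the log2 difference was -0.35 ± 0.56 (SE). Postn was at 738, 484 and 207 CPM in PBS_vehicle and 181, 142 and 569 CPM in Bleo_vehicle. The groups overlapped, as they did for Ebf1, Kcnk3 and Mcam.

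The nitric oxide and cyclic GMP pathway held 14 genes, of which 6 were tested and 0 called. The 6 had a median log2 difference of 0.92 in Bleo_NVP against Bleo_vehicle, where all were positive, and of -1.13 in Bleo_vehicle against PBS_vehicle, where all were negative. Pde5a, which breaks down cyclic GMP, was at 971, 928 and 2735 CPM in Bleo_vehicle, below all libraries of PBS_vehicle (4032, 3109 and 3660 CPM) and of Bleo_NVP (4125, 4972 and 3471 CPM). Its log2 difference was 1.43 ± 0.59 in the first comparison (SE; edgeR adjusted p = 0.444) and -1.21 ± 0.59 in the second. Prkg1 was at 3976, 4309 and 10194 CPM in Bleo_vehicle, 16983, 10808 and 12153 CPM in PBS_vehicle and 12154, 15761 and 8971 CPM in Bleo_NVP. Gucy1b1 was at 203, 287 and 1010 CPM in Bleo_vehicle and 1746, 959 and 621 CPM in PBS_vehicle, which overlapped. For these genes, Bleo_vehicle replicates 1 and 2 were the low libraries of their group, the same 2 in which the selecting genes were low. PBS_NVP replicate 3 was lower still, at 761, 2630 and 34.6 CPM of Pde5a, Prkg1 and Gucy1b1. With these 3 libraries left out, so that Bleo_vehicle was replicate 3 alone and was assumed to vary like the other groups, the medians of the 6 genes were 0.28 and -0.25, with 5 of 6 positive and 5 of 6 negative. The log2 difference of Pde5a was then 0.52 ± 0.47 and -0.30 ± 0.47 (SE), that of Prkg1 0.18 ± 0.47 and -0.30 ± 0.47, and that of Gucy1b1 0.26 ± 0.53 and -0.16 ± 0.52. The 3 libraries were set apart by low levels of the pericyte markers, of which Gucy1b1 is one. The smaller differences are therefore no independent check.

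Genes of calcium handling and of vasoactive receptors were represented by 11 tested genes of 23, with 0 called. Ryr2 was described above. Cacna1d, a voltage-gated calcium channel, was at 384, 508 and 372 CPM in Bleo_vehicle, above PBS_vehicle (361, 329 and 276 CPM) and Bleo_NVP (177, 338 and 180 CPM). Plcb4, a phospholipase C gene, had a log2 difference of -1.26 ± 0.54 (SE) in Bleo_NVP against Bleo_vehicle, which did not pass. Of 26 contractile genes 16 were tested and 0 called, with medians of -0.11 and -0.02 on the log2 scale in the 2 comparisons. The filamin gene Flna had the smallest p among them in the first, with a log2 difference of -1.39 ± 0.71 (SE; edgeR adjusted p = 0.587). Acta2, the smooth muscle actin gene used as a myofibroblast marker, had 104 UMIs in all pericyte nuclei and was not abundant enough to test. It was at 0 to 96.8 CPM in the 6 PBS libraries, at 181, 6.31 and 36.9 CPM in Bleo_vehicle and at 88.7, 30.7 and 90.2 CPM in Bleo_NVP.

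Among the ligands and receptors between pericytes and vessels, 12 of 20 genes were tested and 0 called. Angpt1 was at 2509, 2256 and 1657 CPM in PBS_vehicle, 746, 758 and 2096 CPM in Bleo_vehicle and 2218, 1918 and 1127 CPM in Bleo_NVP, and all of these overlapped. Fibroblast nuclei also held it, at a mean of 1580 plain CPM against 1358 plain CPM in pericyte nuclei. Hgf, which encodes hepatocyte growth factor, was at 488, 368 and 406 CPM in Bleo_NVP, above the 67.8, 107 and 191 CPM of Bleo_vehicle. Its log2 difference was 1.60 ± 0.49 (SE; edgeR adjusted p = 0.264). Cdh2 was at 710, 614 and 1082 CPM in Bleo_NVP and 113, 142 and 351 CPM in Bleo_vehicle, with a log2 difference of 1.85 ± 0.55 (SE; edgeR adjusted p = 0.264). Vegfa, the endothelial growth factor, went the other way at 88.7, 61.4 and 135 CPM against 678, 253 and 163 CPM, and was at 220, 87.2 and 276 CPM in PBS_vehicle. Within Bleo_vehicle, Angpt1, Hgf and Cdh2 were lowest in replicates 1 and 2, in which the selecting genes were low. The part of this in their differences was not tested.

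For Notch, 7 of 17 genes were tested and 0 called. Jag1, a Notch ligand, was at 133, 153 and 180 CPM in Bleo_NVP and 67.8, 41 and 68.7 CPM in Bleo_vehicle, without overlap (log2 difference 1.41 ± 0.52, SE; edgeR adjusted p = 0.343). Rbpj, the transcription factor of the pathway, was at 339, 287 and 294 CPM in Bleo_vehicle, above the 136, 165 and 138 CPM of PBS_vehicle. For PDGF, 5 of 10 genes were tested and 0 called. Pdgfra, a receptor typical of fibroblasts and also a marker of the fibroblast set, was at 113, 152 and 89.7 CPM in Bleo_vehicle and at 0 in all 3 Bleo_NVP libraries (edgeR adjusted p = 0.274). For TGF-beta, 14 of 25 were tested and 0 called, with medians of -0.82 and 0.38 on the log2 scale. Tgfbr2, the type II receptor, was at 177, 76.7 and 180 CPM in Bleo_NVP, below the 361, 410 and 239 CPM of Bleo_vehicle. Its log2 difference was -1.37 ± 0.45 (SE; edgeR adjusted p = 0.297). Ski, a repressor of the pathway, was at 310, 261 and 180 CPM against 429, 571 and 355 CPM.

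Ephb4, the target of NVP-BHG712, was scarce in pericyte nuclei. It had 139 UMIs over all 1194 nuclei and was not abundant enough to test. Its plain level averaged 33.8 CPM in pericyte nuclei, 17.8 CPM in fibroblast nuclei and 121 CPM in endothelial nuclei, and it was higher in endothelial than in pericyte nuclei in all 12 libraries. By library it was at 90.4, 82.1 and 33.5 CPM in Bleo_vehicle, 34.1, 29.1 and 69.1 CPM in PBS_vehicle and 44.4, 15.3 and 45.1 CPM in Bleo_NVP, so the groups overlapped. Efnb2 averaged 68.4 plain CPM in pericyte nuclei and 466 plain CPM in endothelial nuclei. It was at 0, 0 and 45.1 CPM in Bleo_NVP, or 1 UMI, and at 67.8, 101 and 69.6 CPM in Bleo_vehicle. The ratio of Bleo_vehicle to Bleo_NVP was 8.11 with a counting interval of 1.43 to 323, and the test was not passed (edgeR adjusted p = 0.31). Of 21 Eph receptor and ephrin genes 2 were tested, Efnb2 and Efna5, and 0 called. Efna5 stood at 10868 CPM in PBS_NVP replicate 3 and at 15.3 to 721 CPM in the other 11 libraries.

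Interstitial matrix genes were not called either, with 10 of 25 tested. The median log2 difference was -0.91 in Bleo_NVP against Bleo_vehicle, with 8 of 10 genes on the lower side, and 0.20 in Bleo_vehicle against PBS_vehicle. Col3a1, Fn1, Eln and Fbn1 had every Bleo_NVP library below every Bleo_vehicle library, 4 of 10 genes where the background was 11.3%. The plain levels of these 4 in pericyte nuclei were 0.421, 0.21, 0.54 and 0.569 times those in fibroblast nuclei, and no Bleo_NVP pericyte nucleus met the count of alveolar fibroblast markers given above. Summed levels of those markers overlapped, at 215 to 496 CPM in Bleo_vehicle and 149 to 384 CPM in Bleo_NVP. The part of fibroblast RNA in the values of the 4 genes was not tested. With PBS_NVP replicate 3 and Bleo_vehicle replicates 1 and 2 left out, the medians were -0.96 and 0.47. Bleo_vehicle was then replicate 3 alone, which both comparisons share. The 10 of 10 genes lower in the first and 10 of 10 higher in the second thus rest on that same library. Eln, which encodes elastin, was at 452, 477 and 564 CPM in Bleo_vehicle, 186, 397 and 0 CPM in PBS_vehicle and 0, 215 and 361 CPM in Bleo_NVP. Its log2 difference was -1.36 ± 1.00 in the first comparison and 1.08 ± 0.89 in the second (SE). Col3a1, a fibrillar collagen, was at 249, 148 and 256 CPM in Bleo_vehicle and 88.7, 92.1 and 90.2 CPM in Bleo_NVP. Col1a1 had 180 UMIs over all pericyte nuclei and was not tested. Its plain level averaged 49.5 CPM in pericyte nuclei and 52 CPM in fibroblast nuclei. Of the basement membrane genes, 8 of 19 were tested and 0 called. Col4a1, a type IV collagen chain, was at 1378, 751 and 676 CPM in Bleo_vehicle, 629, 639 and 691 CPM in PBS_vehicle and 355, 859 and 361 CPM in Bleo_NVP.

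**Figure D4:**
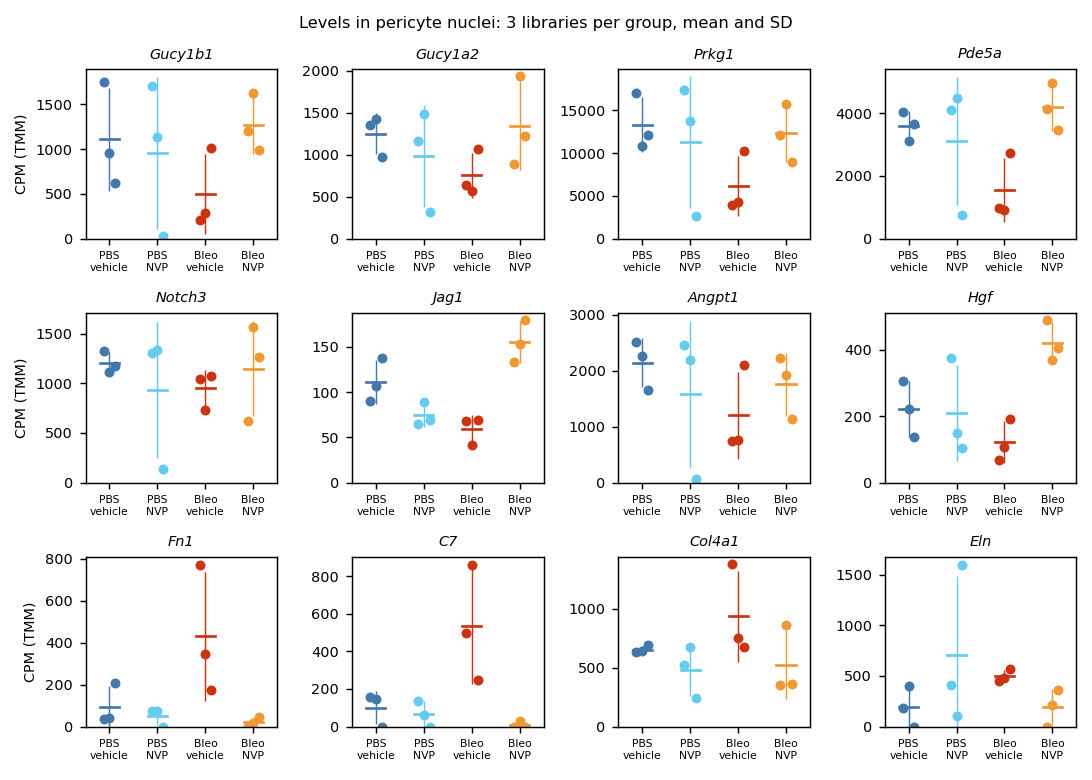
Levels of 12 genes in pericyte nuclei, in TMM-scaled CPM (y axis), by group (x axis). Points are libraries, horizontal lines group means and vertical lines 1 SD to either side, cut at 0. Bleo_vehicle lies below both PBS_vehicle and Bleo_NVP for Pde5a and above them for C7, but none of the 12 genes passed the test.

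The remaining lists gave few genes to test. Of 18 clock genes 3 were tested, of 20 immediate-early genes 1, of 16 p53 target genes 2, of 20 inflammatory genes 2 and of 12 proliferation genes 0, and 0 were called. Sesn1, a p53 target, had a log2 difference of 0.56 ± 0.42 (SE) in Bleo_NVP against Bleo_vehicle, and Nr1d2, a clock repressor, one of 0.39 ± 0.52 (SE). Nr1d1, Dbp and Cdkn1a had 68, 19 and 45 UMIs over all pericyte nuclei. The 10 tested mitochondrial genes were all lower in every Bleo_NVP library than in every Bleo_vehicle library, with a median log2 difference of -3.86, and 0 were called by edgeR. Over all tested genes, 11.3% were lower in this way. The share of mitochondrial genes is the same measure as the mitochondrial percentage given above. Among markers of other cell types, the 3 tested macrophage genes were also lower in every Bleo_NVP library, against the same 11.3%. Their median log2 difference was -3.96. The 8 type II alveolar genes had a median of -0.76 and the 3 endothelial genes one of -1.28. In another setting, nuclei with endothelial, type I alveolar, type II alveolar, macrophage or lymphocyte markers were left out. Then 16 genes were called in Bleo_NVP against Bleo_vehicle and 9 in Bleo_vehicle against PBS_vehicle. Sftpc, the surfactant protein C gene of type II cells, had the smallest p in both, but it is one of the markers by which those nuclei were left out and is not read as a result. The calls of both comparisons also included the mitochondrial genes mt-Co2, mt-Atp6 and mt-Nd4, which are part of the mitochondrial percentage given above. That setting kept 94 of the 372 pericyte nuclei of Bleo_vehicle replicate 3. Airway, smooth muscle, mesothelial and fibroblast markers were not used to leave out nuclei in it.

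In the other comparisons edgeR called 0 genes (0%). There were 43 genes with an unadjusted p under 0.05 in PBS_NVP against PBS_vehicle and 106 in Bleo_NVP against PBS_NVP. The interaction, in which the NVP-BHG712 difference after PBS is subtracted from that after bleomycin, had 140. DESeq2 called 0 genes in each of these 3. With PBS_NVP replicate 3 and Bleo_vehicle replicates 1 and 2 left out, the counts were 0 in Bleo_NVP against Bleo_vehicle, 1 in Bleo_vehicle against PBS_vehicle, 0 in PBS_NVP against PBS_vehicle, 0 in Bleo_NVP against PBS_NVP and 1 in the interaction, the serotonin receptor gene Htr2c.

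Whether pericyte nuclei responded unlike fibroblast nuclei of the same lungs was tested directly. The 1194 pericyte nuclei and 11085 fibroblast nuclei (chosen by alveolar fibroblast markers) were summed per library, and the difference between their 2 responses was fitted with library as a block, so that a shift common to both sets of a library cancels. Of 10665 genes, 32 (0.3%) differed in their response to Bleo_NVP against Bleo_vehicle, 10 with a higher and 22 with a lower change in pericyte nuclei. Scube2, one of the 10 excluding genes, and Pdgfra, a marker of the fibroblast set, are among the 22, took part in choosing the nuclei and are no findings. In Bleo_vehicle against PBS_vehicle 8 genes (0.075%) differed, 1 higher and 7 lower. In their own fit, fibroblast nuclei had 940 and 172 called genes in these 2 comparisons, over 11468 genes and sums far larger than those of pericyte nuclei. The difference between the sets had 948 and 513 genes at an unadjusted p under 0.05. The counts of 32 and 8 moved with single libraries. Leaving out 1 library at a time gave 6 to 170 genes in the first comparison, where 6, with 3 of the 32 among them, came without Bleo_NVP replicate 2 and 170 without PBS_NVP replicate 3. In the second comparison it gave 6 to 77 genes. The median difference between the responses over all genes was -0.38 on the log2 scale in the first comparison and 0.08 in the second.

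Spp1, which encodes osteopontin, differed in both comparisons. In fibroblast nuclei it was at 372, 98 and 27.5 CPM in Bleo_vehicle, 1.43, 0 and 0 CPM in PBS_vehicle and 0, 0 and 1.53 CPM in Bleo_NVP. In pericyte nuclei it was at 836, 205 and 198 CPM, 244, 145 and 345 CPM, and 88.7, 107 and 270 CPM in the same order. The pericyte groups overlapped, whereas every Bleo_vehicle fibroblast value was above those of PBS_vehicle and Bleo_NVP. The fibroblast values rest on 1243 UMIs in Bleo_vehicle, 16 in PBS_vehicle and 3 in Bleo_NVP. Bleo_vehicle replicate 1, the highest library, had 149 fibroblast nuclei. RNA of other cell types in the fibroblast nuclei was not examined. The log2 response of pericyte nuclei was lower by -6.36 ± 0.82 in Bleo_vehicle against PBS_vehicle (SE; edgeR adjusted p = 0.000287) and higher by 6.26 ± 1.15 in Bleo_NVP against Bleo_vehicle (edgeR adjusted p = 0.014). The difference after bleomycin was called in each of the 21 alternative settings, with edgeR adjusted p-values up to 0.0195, and that with NVP-BHG712 in 19 of the 21, with adjusted p-values up to 0.107. In their own fit, fibroblast nuclei passed for Spp1 in both comparisons (edgeR adjusted p = 0.0116 and 0.0114).

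Postn, Cdh2 and St6galnac3 also differed in both comparisons, and their levels were higher in pericyte than in fibroblast nuclei. In fibroblast nuclei Postn was at 5.17, 7.49 and 4.43 CPM in Bleo_vehicle, at 1.16, 0.855 and 0 CPM in PBS_vehicle and at 0, 0.45 and 0 CPM in Bleo_NVP, against 142 to 738 CPM in the pericyte nuclei of these groups. The difference of the responses was -3.59 ± 0.72 (SE; edgeR adjusted p = 0.0118) after bleomycin and 5.17 ± 1.07 (edgeR adjusted p = 0.014) with NVP-BHG712. These differences were not called in 5 and 6 of the 21 settings, where edgeR adjusted p-values reached 0.67 and 0.556. The fibroblast UMIs behind them were 133 in Bleo_vehicle, 15 in PBS_vehicle and 1 in Bleo_NVP. For Cdh2 the differences were -3.74 ± 0.78 (edgeR adjusted p = 0.02) and 4.27 ± 0.90 (edgeR adjusted p = 0.0154), with 102, 7 and 3 fibroblast UMIs. Fibroblast nuclei held 0, 6.79 and 3.3 CPM of Cdh2 in Bleo_vehicle and 0.446, 0.427 and 0.523 CPM in PBS_vehicle, and these groups overlapped. Each of the Cdh2 differences was lost in 5 of the 21 settings, with edgeR adjusted p-values up to 1 and 0.844; without nuclei carrying markers of other classes they were -1.21 and 1.23. St6galnac3, a sialyltransferase gene, was at 121, 150 and 85.8 CPM in fibroblast nuclei of Bleo_vehicle and 65.1, 44 and 13.6 CPM in PBS_vehicle. In pericyte nuclei it was at 407, 644 and 857 CPM in Bleo_vehicle and 1720, 1433 and 1381 CPM in PBS_vehicle. The 2 sets thus lay in opposite order, each without overlap, with a difference of -2.80 ± 0.56 (SE; edgeR adjusted p = 0.0118), not called in 5 of the 21 settings (adjusted p up to 0.126). With NVP-BHG712 it was 3.37 ± 0.58 (edgeR adjusted p = 0.00226), the smallest of that comparison. Within Bleo_vehicle, pericyte levels of Postn, Cdh2 and St6galnac3 were lowest in replicates 1 and 2, in which the selecting genes were low. The library block cancels only a shift common to both sets. No fit of the difference left out both of these replicates, so the part of this in the differences was not tested.

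Pcdh7, a protocadherin gene, differed after bleomycin by -3.17 ± 0.59 (SE; edgeR adjusted p = 0.0118). Fibroblast nuclei held 417, 220 and 175 CPM in Bleo_vehicle and 75, 56.8 and 99.9 CPM in PBS_vehicle, and pericyte nuclei 45.2, 180 and 157 CPM against 378, 320 and 898 CPM. Each set was again without overlap, in opposite order. This difference was not called in 4 of the 21 settings, with edgeR adjusted p-values up to 1. Rgs6, a regulator of G protein signalling, and Pcdh19 were among the genes with a higher pericyte response to Bleo_NVP against Bleo_vehicle, with differences of 4.38 ± 0.82 (SE; edgeR adjusted p = 0.0239) and 6.86 ± 1.62 (edgeR adjusted p = 0.0334). They were not called in 5 and 6 of the 21 settings (edgeR adjusted p up to 0.782 and 0.656), and the Rgs6 difference was 0.83 without nuclei carrying markers of other classes. Rgs6 was at 226, 830 and 1412 CPM in Bleo_vehicle pericyte nuclei and 1109, 2471 and 1578 CPM in Bleo_NVP, which overlapped, and at 157, 161 and 82.9 CPM and 5.35, 21.1 and 11.7 CPM in fibroblast nuclei. Pcdh19 had 63 and 0 UMIs in fibroblast nuclei of these groups. Against a floor of 3 UMIs over the group, it was at least 4.5-fold lower in Bleo_NVP. Pericyte Rgs6 was also lowest in replicates 1 and 2 of Bleo_vehicle, in which the selecting genes were low. The part of this in its difference was not tested.

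Among the 22 genes with a lower pericyte response, C7 was abundant in fibroblast nuclei, at 2094, 1993 and 1973 CPM in Bleo_vehicle and 2676, 2386 and 2493 CPM in Bleo_NVP, where its own test was not passed (edgeR adjusted p = 0.525). The difference of the responses was -5.20 ± 1.16 (SE; edgeR adjusted p = 0.0457). Slc1a3, a glutamate transporter gene, Meox2, a homeobox gene, Mtmr10 and Csrp1 had 90, 91, 95 and 96 UMIs in Bleo_vehicle pericyte nuclei and 0 in Bleo_NVP. Against a floor of 3 UMIs over the group these levels were at least 2.06-fold, 2.08-fold, 2.18-fold and 2.2-fold lower. Their differences of response had edgeR adjusted p-values of 0.014, 0.0334, 0.0239 and 0.0239. Of the 21 settings, calls were lost in 5 for C7, 3 for Slc1a3, 6 for Meox2, 5 for Mtmr10 and 5 for Csrp1, with edgeR adjusted p-values up to 0.13, 0.126, 0.283, 0.582 and 0.309. All 22 genes had a lower plain level in pericyte than in fibroblast nuclei, at 0.0604 to 0.466 times it. The count of at least 3 UMIs over at least 2 alveolar fibroblast markers was met by 4 to 12.1% of pericyte nuclei in Bleo_vehicle and by 0% in Bleo_NVP. Summed levels of these markers overlapped, at 215 to 496 CPM in Bleo_vehicle and 149 to 384 CPM in Bleo_NVP. The library medians were 1343 to 2547.5 and 811 to 1337 UMIs per pericyte nucleus in the same order. The part of fibroblast RNA and of depth in the responses of the 22 genes was not tested. In 14 of the 22 genes the Bleo_NVP pericyte sums held 3 UMIs or fewer, and in 6 of these none. Of the 10 genes with a higher pericyte response, 5 had 3 UMIs or fewer in the Bleo_NVP fibroblast sums. All 10 had a higher plain level in pericyte than in fibroblast nuclei, at 4.2 to 244 times it. The part of pericyte RNA in the fibroblast values of these 10 genes was not tested. With the largest nucleus of each library left out, 185 and 139 genes differed in the 2 comparisons, and with nuclei carrying markers of other classes left out, 17 and 14, of which 6 and 1 were among the 32 and the 8. The 1 was Spp1.

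**Figure D5:**
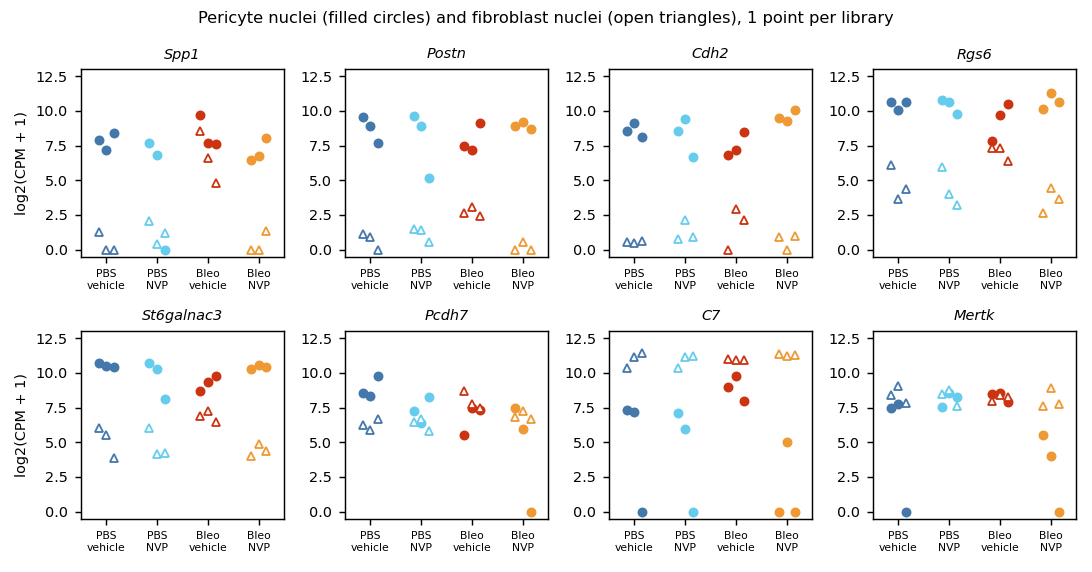
Levels of 8 genes in pericyte nuclei (filled circles) and fibroblast nuclei (open triangles) as log2(CPM + 1), TMM-scaled within each set (y axis), by group (x axis), with 1 point per library. For Spp1 and Postn, the fibroblast points of Bleo_vehicle lie above those of both PBS_vehicle and Bleo_NVP, whereas the pericyte points of these groups overlap.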

How the data were processed

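Nuclei of whole frozen lungs were sequenced with a 3′ kit of 10x Genomics, 1 library per mouse, and the authors aligned reads to mm10. The matrix headers name Cell Ranger 7.2.0, and the submitters' processing notes name Cell Ranger 7.0 and Seurat 4.4.1. The deposited values are raw UMI counts per gene and barcode from before the study's own filters. The study's doublet and free-RNA corrections were not run. Doublets were treated only by a setting that left out nuclei with at least 3 UMIs over at least 2 markers of another class. Its classes were endothelial, type I alveolar, type II alveolar, macrophage and lymphocyte. Airway, smooth muscle, mesothelial, Schwann cell and fibroblast markers were not used in it.

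Counts of pericyte nuclei were summed per library, with all 12 libraries fitted together (filterByExpr, TMM, robust quasi-likelihood, two-sided, edgeR 4.0.16, R 4.3.3; biological coefficient of variation 0.39). DESeq2 1.42.0 was an alternative. Shares were compared by exact permutation tests (scipy). The fits were also run on simulated counts with known changes, drawn with a single common spread for all genes. Such counts hold no dominant nuclei and no RNA of other cell types that differs between groups, so they are no check on these. A gene was named if it was called, averaged 20 CPM or more, had groups without overlap, and was neither predicted nor among the 16 selecting genes. Up to 10 per direction were named in the 2 main comparisons and up to 5 in the others and in the comparison of sets, by size of change, with a fixed list of genes and the genes of smallest p in each list. Genes close to a call, leading genes of the set and Gm26870 were added after their values were seen. The members and lists were chosen with earlier results of these data known. Same-numbered libraries deviated with correlations of -0.21 to 0.31, over 0.1 in 1 of 18 pairs, so replicate numbers were not taken as pairs. Coordinates are from GENCODE M21.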

Additional observations from a re-analysis of the deposited data

Results flagged for a closer look

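Responses that differed between pericyte and fibroblast nuclei, by a test of the difference itself in edgeR, were singled out: 32 genes in Bleo_NVP against Bleo_vehicle and 8 in Bleo_vehicle against PBS_vehicle. In the first comparison, the pericyte response was higher for Pcdh19 (adjusted p = 0.0334), Spp1 (adjusted p = 0.014), Postn (adjusted p = 0.014), Rgs6 (adjusted p = 0.0239) and Cdh2 (adjusted p = 0.0154). It was lower for Slc1a3 (adjusted p = 0.014), Meox2 (adjusted p = 0.0334), Mtmr10 (adjusted p = 0.0239), Csrp1 (adjusted p = 0.0239) and C7 (adjusted p = 0.0457). In the second comparison it was lower for Spp1 (adjusted p = 0.000287), Cdh2 (adjusted p = 0.0200), Postn (adjusted p = 0.0118), Pcdh7 (adjusted p = 0.0118) and St6galnac3 (adjusted p = 0.0118). The remaining calls of the second comparison, outside the rule for naming genes, were Fhod3, Kctd16 and the predicted gene Gm40645, and Kctd16 had 3 UMIs or fewer in PBS_vehicle pericyte nuclei. For the first comparison, the Bleo_NVP fibroblast sums held 0 UMIs of Pcdh19, 3 of Spp1, 1 of Postn and 3 of Cdh2. The Bleo_NVP pericyte sums held 0 UMIs of Slc1a3, Meox2, Mtmr10 and Csrp1 and 2 of C7. For Spp1 and Postn the pericyte groups overlapped. Pericyte Postn, Cdh2, Rgs6 and St6galnac3 were lowest within Bleo_vehicle in replicates 1 and 2, in which the selecting genes were low. Spp1 and Pcdh7 did not follow this order. The part of this in the differences was not tested.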

How the results depend on the processing

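For pericyte nuclei, counts of called genes are given for Bleo_NVP against Bleo_vehicle, then for Bleo_vehicle against PBS_vehicle (0 and 1 by edgeR). They were 21 and 1 with DESeq2, 73 and 33 with no filter on low counts, 2 and 1 with a stricter rule for nuclei, 16 and 9 without nuclei carrying markers of other classes, and 0 and 2 when nuclei under 500 UMIs or over 1% mitochondrial UMIs were left out. With no filter, PBS_NVP against PBS_vehicle had 17, Bleo_NVP against PBS_NVP 12 and the interaction 24. Settings chosen after seeing the data gave 26 and 1 (nuclei with other pericyte markers), 1 and 4 (over 10 selecting UMIs), 29 and 14 (largest nucleus of each library left out), 0 and 2 (libraries of under 20 pericyte nuclei left out) and, in the interaction, 1 (PBS_NVP replicate 3 and Bleo_vehicle replicates 1 and 2 left out). Leaving out 1 library at a time gave 0 to 12 and 0 to 4, with both maxima without Bleo_vehicle replicate 3 and the 0 of the second without PBS_vehicle replicate 1; it gave 0 to 1 in Bleo_NVP against PBS_NVP. Replicate numbers did not pair the libraries, and with the replicate block the counts stayed at 0 and 1.

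Genes whose response differed between pericyte and fibroblast nuclei (32 and 8) numbered 27 and 5 with DESeq2 size factors, 116 and 70 with no filter, 17 and 14 without other-class nuclei, 74 and 21 with the UMI and mitochondrial limits, 126 and 79 with other pericyte markers, 100 and 66 with over 10 selecting UMIs, 185 and 139 without the largest nuclei, and 62 and 13 without small libraries. Leaving out 1 library gave 6 to 170 in the first comparison. Replicates 1 to 3 left out gave 100, 104 and 50 for PBS_vehicle, 125, 116 and 170 for PBS_NVP, 61, 18 and 61 for Bleo_vehicle and 13, 6 and 13 for Bleo_NVP. In the second comparison the range was 6 to 77, with 54, 31 and 6, then 69, 65 and 77, then 13, 8 and 55, then 10, 10 and 15.

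The share difference between Bleo_NVP and Bleo_vehicle reversed to 0.125 points with over 10 selecting UMIs. Leaving out 1 library, it ran from -0.944 (without Bleo_vehicle replicate 1) to -0.0924 (without Bleo_vehicle replicate 3), and that between Bleo_NVP and PBS_NVP from -1.59 (without PBS_NVP replicate 3) to -0.265 (without PBS_NVP replicate 1 or 2). Without other-class nuclei the latter was -2.26 points, on another scale, since those nuclei also left the denominator. In PBS_NVP replicate 1 the denominator fell from 8610 to 2226 nuclei and the share rose from 3.23 to 9.39%. Between Bleo_vehicle and PBS_vehicle it ran from -0.763 to 0.450 points when 1 library was left out, with 0.383 without Bleo_vehicle replicate 1, and between PBS_NVP and PBS_vehicle from -0.506 to 1.03, with -0.296 without PBS_NVP replicate 1 or 2. The causes were not tested. Depth limits Bleo_NVP most: 3 UMIs over its group are 22.5 CPM.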
